A study of Rattus norvegicus with 23 samples.

Results

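The 48 genes described here carry fatty acids and glucose through energy metabolism in the rat heart, together with the 2 creatine kinases of striated muscle. They were chosen by function, though with earlier results of these data known, and are 48 of 16544 genes that the arrays name. Of the 48 genes, 8 take up or activate fatty acids, 3 form the carnitine shuttle, 8 carry out mitochondrial beta-oxidation and 4 regulate fatty acid use. A further 4 take up or phosphorylate glucose, 14 are glycolytic enzymes, 5 handle lactate or the entry of pyruvate into mitochondria, and 2 are creatine kinases.

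The adult heart draws most of its energy from fatty acids. These are activated to acyl-CoA, passed into mitochondria by the carnitine shuttle and shortened in steps by beta-oxidation, while glucose is split to pyruvate by glycolysis and then either turned into lactate or oxidised. Many steps are run by alternative genes for the same reaction, often 1 form that prevails in striated muscle and 1 that is found in most tissues. Creatine kinase buffers ATP near mitochondria and near the contractile filaments.

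The samples were 23 pieces of heart and great vessel tissue from rats, each put on its own one-colour Agilent array: 4 of left atrium next to the pulmonary vein (LA), 4 of left ventricle (LV), 3 of right ventricular free wall (RV), 4 of sinoatrial node region (SA), 4 of pulmonary vein (PV) and 4 of pulmonary artery (PA). According to the methods, 12 male Wistar rats aged 8 to 11 weeks were used, and tissue was taken under pentobarbital with heparin in all groups. The labels name no transgene or treatment that differs between groups. Tissue of 2 rats was needed for an SA sample, and whether all SA arrays came from different rats is not stated in the sources used here. The methods also say that SA was isolated separately because of the time its isolation takes. Differences between SA and other regions cannot be told apart from this separate isolation. Each LV was cut into 3 pieces that served as samples, so LV arrays may be pieces of the same heart. The labels do not say which rat gave which array, and p-values therefore measure the spread between these samples, which may in part be technical. LV and RV together are called V (7 arrays).

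Every tissue piece holds several cell types, so that fewer cells of a type and less RNA per cell cannot be told apart. Several cell type markers went with the labels, and others did so less or not at all. Irx4, a ventricular transcription factor, lay between 12.21 and 12.62 on the log2 scale in V and at or below 6.32 elsewhere, and Mybphl, an atrial sarcomere gene, was between 17.01 and 17.80 in LA, SA and PV. Shox2, a nodal transcription factor, was at 11.30 to 11.55 in SA and at 10.91 to 11.16 in PV. Myh11, the smooth muscle myosin, reached 17.24 to 17.70 in PA, and Myh6, the cardiac myosin, was 14.07 to 15.50 there against 18.48 to 19.35 in the other regions. Ucp1, the defining gene of brown fat, was 11.15 to 13.60 in SA, 8.16 to 12.42 in PV and 11.14 to 13.33 in PA, but 3.86 to 7.35 in LA and 3.38 to 5.04 in V. RV replicate 2 had more Mybphl (9.09) than any other V array, and PA replicate 1 had more (10.28) than any other PA array. Between 58.6% and 79.8% of an array's probes stood well above background, and saturated spots were not found (0). The share was 72.7% to 79.8% on arrays in row 1 of their slide and 58.6% to 69.4% on those in row 2.

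Values are log2 of the authors' normalized signal plus 1, taken for each gene from its brightest probe on each array. All 48 genes passed the filter for low signal. Each was well above background on every array except Acacb, which was so on 2 of 4 PA arrays, and Acsl6, on 3 of 4. Differences are log2 differences ± SE from limma, fitted over 16089 genes and all 23 arrays, and a gene is called at a Benjamini-Hochberg adjusted p below 0.05 over all those genes. Comparisons that name the same region share its arrays, and are not independent of each other.

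**Figure D1:**
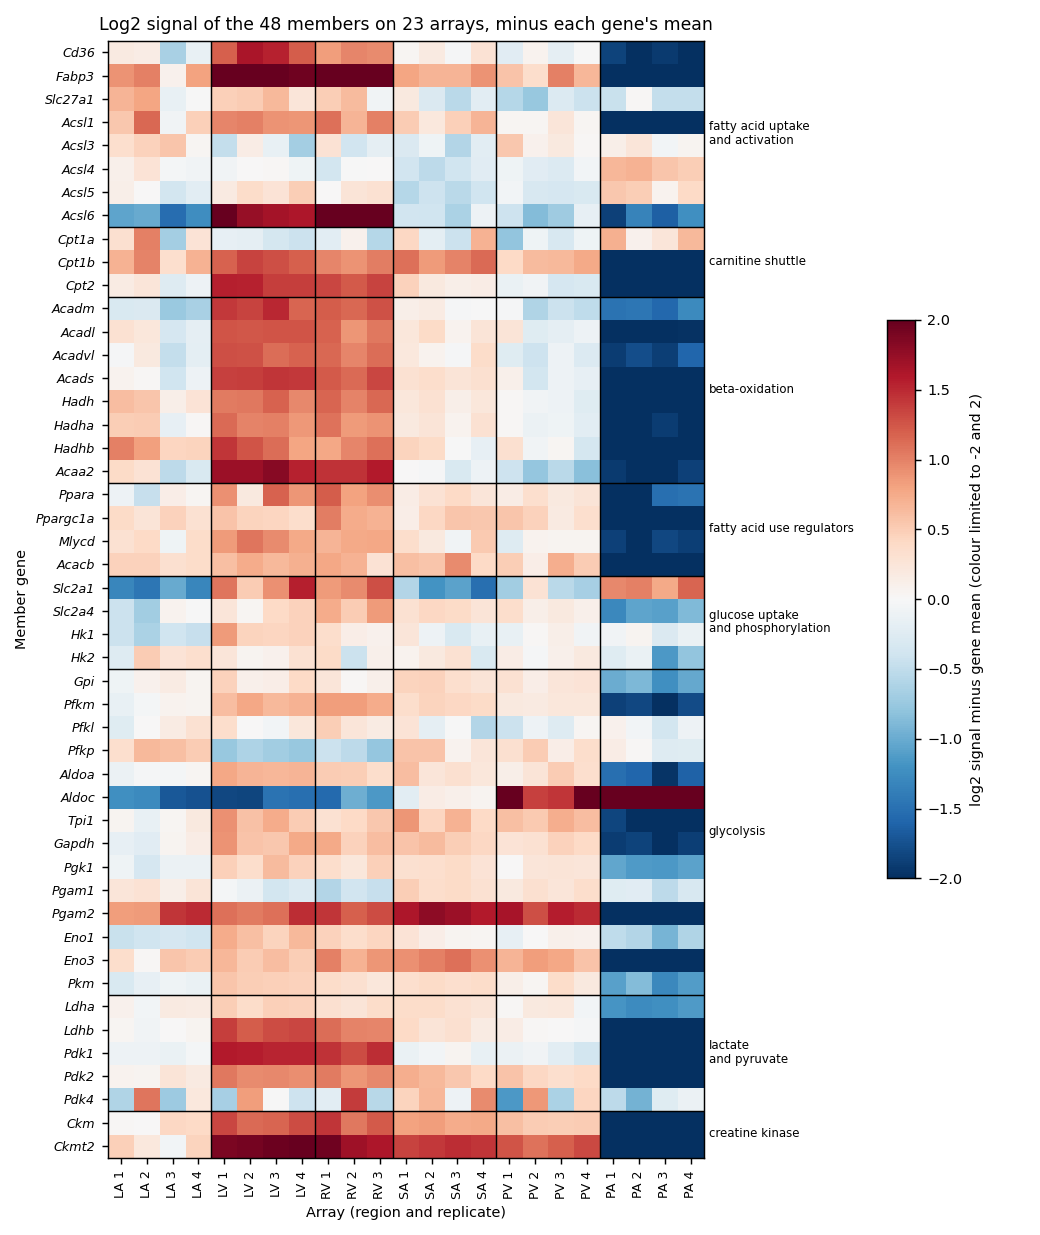
Log2 signal of the 48 genes (rows, grouped by role) on the 23 arrays (columns, grouped by region), each minus that gene's mean over all arrays, in colour from -2 (blue) to 2 (red). The 7 V columns are red in all 8 beta-oxidation rows, the 4 PA columns are blue in most rows but red for Aldoc, Slc2a1, Acsl4, Acsl5 and Cpt1a, and Aldoc is strongly red in PV and PA alone.

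The first question was how the working ventricle differed from the atrium. Compared with LA, 32 of the 48 genes were higher in V and 3 were lower, where 18.4% of all genes tested were called higher and 16.9% lower. The median log2 difference of the 48 genes was 0.59, against 0.09 over all genes. Against SA, 26 genes were higher in V and 4 lower, with 15.8% and 12.3% of all genes called in these directions, and the median was 0.39 against 0.06. An F-test over LA, V and SA (15 arrays) called 39 of the 48 genes and 40.5% of all genes. The 9 genes it did not call were Acacb, Acsl1, Cpt1a, Gpi, Hk2, Pdk4, Pfkl, Ppargc1a and Slc27a1. The summed signal of 5 genes of working heart muscle was 1281523 to 1652532 in V, 1041911 to 1272624 in LA and 1458193 to 1625868 in SA, and that of 4 erythroid genes was 7968 to 17674 in V against 25807 to 143518 in LA and SA. Of these 4, Hba-a1, Hbb and Alas2 were lower in V than in both regions and Slc4a1 was higher, by 1.90 and 1.504. The sum of 5 macrophage and leukocyte genes was 3715 to 4933 in V, 2400 to 3134 in LA and 2009 to 2497 in SA, with Ptprc, Csf1r and Cd68 called higher in V and Cd163 and Cd3e not called. The sum of 6 smooth muscle genes was 26708 to 35817 in V and 50479 to 76541 in SA. Tnni3, a cardiac troponin, differed between V and LA by 0.35 (adjusted p = 0.57) in a fit that takes 1 spread over all regions, PA with 9.15 to 12.95 included. Every V array (18.39 to 18.76) lay above every LA array (18.02 to 18.38). The part of these cells in the V results was not tested.

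Beta-oxidation genes were higher in V than in both other regions. All 8 were called higher in V than in SA and 7 of 8 higher than in LA, with medians of 0.95 and 1.21. Acadm, the medium-chain acyl-CoA dehydrogenase, measured 15.06, 15.09, 14.63 and 14.72 on the 4 LA arrays and 15.48, 15.52, 15.34 and 15.36 on the 4 SA arrays, while the 7 V arrays ran from 16.51 over a median of 16.65 to 16.88. All V arrays lay above all others. V exceeded LA by 1.78 ± 0.11 (adjusted p = 2.7e-10) and SA by 1.23 ± 0.11 (adjusted p = 6.1e-08).

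Acaa2, the thiolase that cuts off acetyl-CoA in the last step, read 14.14, 14.05, 13.24 and 13.46 in LA and 13.76, 13.74, 13.45 and 13.66 in SA, and 15.20 to 15.57 in V with a median of 15.35. The difference was 1.63 ± 0.14 over LA and 1.70 ± 0.14 over SA. LA replicates 3 and 4 read lower than replicates 1 and 2 in all 8 genes of this group.

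The other dehydrogenases of this group differ in the chain length they accept. Acads (short chains) was higher in V than in LA by 1.41 ± 0.09, Acadvl (very long chains) by 1.27 ± 0.11 and Acadl (long chains) by 1.14 ± 0.13. Hadh, which oxidises short-chain hydroxyacyl-CoA, differed by 0.69 ± 0.09.

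Hadha and Hadhb encode the 2 subunits of the mitochondrial trifunctional protein, which runs the later steps for long chains. In RefSeq (build GRCr8) they lie head to head on chromosome 6, on opposite strands, with 300 bases between the start sites of the promoter entries. The 250 bases before the Hadha start are at chr6:31907551-31907800 (plus strand). The gene record of Hadhb reaches to base 31907557, past its promoter entry's start, so the first bases of this stretch lie within that record. The stretch is shown because it lies next to the starts of both genes.
Hadha: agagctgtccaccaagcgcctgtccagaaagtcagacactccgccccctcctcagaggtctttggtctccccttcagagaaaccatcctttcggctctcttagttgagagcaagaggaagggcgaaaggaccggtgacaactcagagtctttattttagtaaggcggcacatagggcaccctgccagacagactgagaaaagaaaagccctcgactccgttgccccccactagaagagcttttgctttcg
The stretch holds neither of the motifs searched below. Hadha was higher in V than in LA by 0.76 ± 0.11 (adjusted p = 1.9e-05) and than in SA by 0.77 ± 0.11. Hadhb was higher than in SA by 0.88 ± 0.16 and its difference from LA was 0.37 ± 0.16 (adjusted p = 0.076), the only 1 of the 8 genes not called there. On the arrays, Hadhb read 13.84, 13.66, 13.26 and 13.28 in LA against 13.61 to 14.26 (median 13.93) in V, so that the groups overlapped. In SA it read 13.28, 13.21, 12.83 and 12.68, below every V array.

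Of the genes that bring fatty acids into the cell and activate them, 4 of 8 were higher in V than in LA, 1 was lower, and 7 of 8 were higher in V than in SA. Acsl6, a long-chain acyl-CoA synthetase best known from brain, had the largest difference of the 48 genes between V and LA, and between V and SA. It measured 5.89, 5.94, 5.42 and 5.69 in LA, 6.57, 6.55, 6.30 and 6.83 in SA, and 8.57 to 9.60 in V with a median of 9.06. V exceeded LA by 3.34 ± 0.16 (10.1-fold, adjusted p = 5.1e-12) and SA by 2.51 ± 0.16 (5.71-fold, adjusted p = 2.9e-10). A second probe for Acsl6 was well above background on 4 of 23 arrays only, and no difference is given for it.

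Cd36, the fatty acid transporter of the cell membrane, was higher in V than in LA by 1.27 ± 0.14 and than in SA by 1.03 ± 0.14. Endothelial cells also carry Cd36, and the summed signal of 6 endothelial genes ran from 66926 to 82443 in V, against 38942 to 50651 in LA and 40482 to 47487 in SA. Of these 6, Cdh5, Kdr, Vwf and Tie1 were higher in V than in LA, while Pecam1 (-0.12) and Tek (-0.08) were not called. Their part in the Cd36 difference was not tested. Fabp3, the fatty acid binding protein of heart, read 16.61, 16.71, 15.79 and 16.51 in LA and 17.65 to 17.95 in V, a difference of 1.39 ± 0.32 (adjusted p = 0.002).

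Acsl1, the main synthetase of heart, was higher in V than in SA by 0.46 ± 0.16 (adjusted p = 0.041), a call lost in 13 alternatives, among them leaving out any 1 of 8 arrays. Its difference between V and LA was 0.41 ± 0.16 (adjusted p = 0.06), with LA replicate 2 (16.44) above every V array. Acsl3, a synthetase linked to lipid droplets, was lower in V than in LA by 0.54 on the log2 scale (-0.54 ± 0.16, adjusted p = 0.012), and read 9.57, 9.69, 9.79 and 9.27 in LA against 8.56 to 9.52 in V, which overlap. In SA it read 8.94, 9.14, 8.65 and 9.02, below every LA array. Acsl3, Acsl4 and Acsl5 were the 3 genes called higher in LA than in SA, by 0.64 ± 0.18, 0.45 ± 0.10 and 0.37 ± 0.12. Without LA replicate 2, or without SA replicate 3, only 1 gene was called higher in LA. Between LA and SA the Acsl5 call was lost in 18 alternatives, that of Acsl3 in 3 and that of Acsl4 in 1. Acsl4 read 8.15, 8.33, 8.01 and 7.99 in LA and 7.67, 7.53, 7.66 and 7.83 in SA, and Acsl5 read 10.71, 10.61, 10.23 and 10.39 against 10.03, 10.18, 10.06 and 10.20, in both cases without overlap. Slc27a1 was higher in V than in SA by 0.62 ± 0.19 (not called without SA replicate 3) and did not differ by a called amount from LA (0.08 ± 0.19).

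In the carnitine shuttle, Cpt2, the inner membrane enzyme, was higher in V than in LA by 1.37 ± 0.09 (adjusted p = 1.2e-09) and than in SA by 1.15 ± 0.09. Cpt1b, the outer membrane enzyme of muscle, differed by 0.43 ± 0.20 and 0.09 ± 0.20, and Cpt1a, its liver form, by -0.48 ± 0.26 and -0.38 ± 0.26, with none of these called. Cpt1a ran from 9.64 to 11.33 in LA and from 9.90 to 10.16 in LV.

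Among the regulators, Ppara, the nuclear receptor that drives fatty acid genes, was higher in V than in LA (0.98 ± 0.19) and SA (0.61 ± 0.19), the call against SA being lost without RV replicate 1, SA replicate 1 or SA replicate 4. Mlycd, which removes malonyl-CoA, was higher by 0.57 ± 0.11 in both comparisons. Ppargc1a, a coactivator of mitochondrial genes, was higher than in LA by 0.28 ± 0.10 (adjusted p = 0.037; lost in 10 alternatives, 6 of them leaving out 1 array), and Acacb, which makes malonyl-CoA, was not called against either region.

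**Figure D2:**
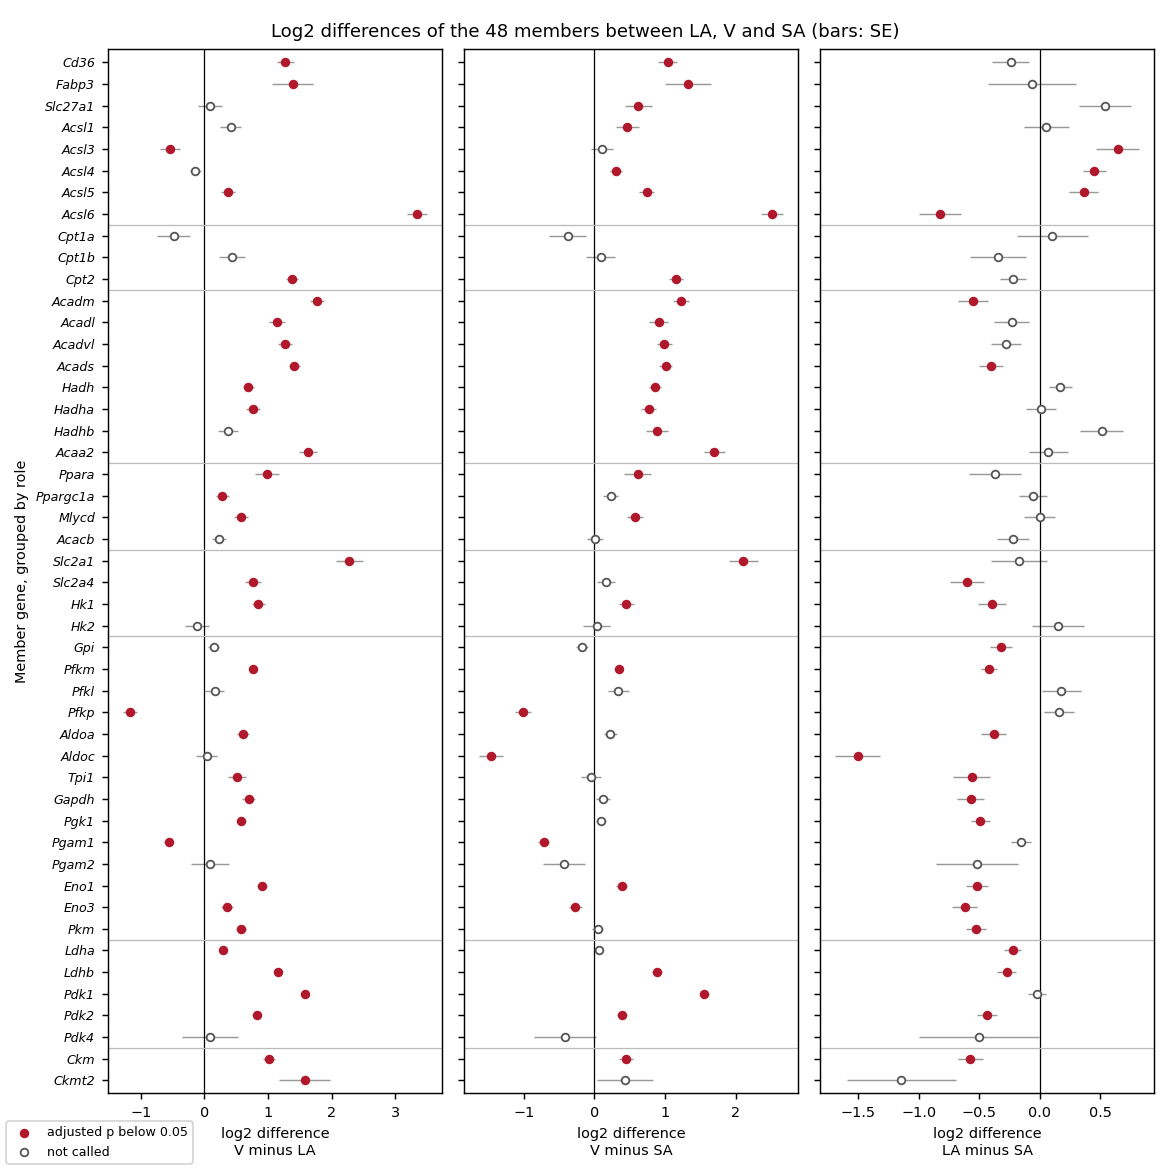
Log2 difference of each of the 48 genes (rows, grouped by role) for V minus LA, V minus SA and LA minus SA, with SE bars; filled points have an adjusted p below 0.05. Nearly all fatty acid genes lie right of 0 in the first 2 panels, while in the third panel 10 of the 14 glycolytic genes are filled and left of 0.

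Counts for the glycolytic enzymes differed between the comparisons with LA and SA. Of the 14 glycolytic enzymes, 8 were higher in V than in LA and 2 lower, but only 2 were higher in V than in SA and 4 were lower. Their median difference was 0.43 between V and LA and -0.0023 between V and SA. The gap between these contrasts is the difference between SA and LA.

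That comparison called 19 of the 48 genes lower in LA than in SA and 3 higher, with 7.03% and 8.26% of all genes called in these directions, and the median was -0.26 against -0.01 over all genes. The 19 genes included 10 of the 14 glycolytic enzymes, 3 of 5 genes of lactate and pyruvate, 2 of 4 genes of glucose uptake and phosphorylation, 2 of 8 of beta-oxidation (Acadm and Acads), Acsl6 and Ckm. The calls of Acadm and Acads were lost with quantile normalization, and that of Acads also with normexp and without the other regions in the fit. Aldoc read 10.58, 10.54, 10.11 and 10.06 in LA and 11.59, 11.96, 11.90 and 11.85 in SA. LA was lower by 1.51 on the log2 scale (-1.51 ± 0.19, adjusted p = 2.6e-05). Aldoc in V (9.96 to 10.83, median 10.30) overlapped with LA, at a difference of 0.04 ± 0.17, and was lower than in SA (-1.47 ± 0.17, adjusted p = 1.3e-06).

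Smaller differences ran through most steps of the path. Eno3, the muscle enolase, was lower in LA than in SA (-0.62 ± 0.10), with arrays at 16.37, 16.04, 16.57 and 16.53 against 16.93, 17.02, 17.12 and 16.92. Pkm (-0.53 ± 0.08), Eno1 (-0.52 ± 0.09), Pgk1 (-0.49 ± 0.08) and Pfkm (-0.42 ± 0.07) were lower too, and for each of them the LA and SA arrays did not overlap. Gapdh differed by -0.57 ± 0.11. Genes such as Gapdh, Ldha and Pgam1 have near-identical pseudogenes, so their probes may read more than 1 locus. Slc2a4, the insulin-regulated glucose transporter, was lower in LA by 0.60 (-0.60 ± 0.14, adjusted p = 0.007). Ckmt2 read 17.00, 16.73, 16.46 and 16.97 in LA and 17.86, 17.93, 17.996 and 17.95 in SA, without overlap, and was not called (-1.14 ± 0.45, adjusted p = 0.099). The fit takes 1 spread over all regions, and this gene varied from 8.47 to 11.77 in PA.

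Markers of other cells also differed between these regions. Of 7 brown fat and fat cell genes, Ucp1 alone was called, LA being lower by 6.74 on the log2 scale (-6.74), and Cidea (0.02), Cox8b (-0.29), Adipoq (-1.78), Cfd (0.41) and Lep (0.48) were not. Elovl3 was not called either. It read 2.41 to 3.36 in LA, below the filter of 4, so no size is given. The summed signal of 4 erythroid genes ran from 74545 to 143518 in SA against 25807 to 44778 in LA, that of 6 smooth muscle genes from 50479 to 76541 against 26119 to 31919, and that of 5 genes of working heart muscle from 1458193 to 1625868 against 1041911 to 1272624, each without overlap. The sum of 4 Schwann cell genes, 2437 to 3047 in SA and 1556 to 2313 in LA, did not overlap either. The part of these cells in the 19 differences was not tested, and the differences cannot be told apart from the separate isolation of SA. Of the LA arrays 3 lay in row 1 of their slide and of the SA arrays 3 lay in row 2. With row as a block in the fit, 19 genes were lower and 4 higher in LA. Over all 48 genes, the median difference was -0.27 within row 1 (3 LA arrays and 1 SA array), with 38 genes below 0, and -0.17 within row 2 (1 and 3), with 28 below 0. On slides 1, 2 and 3 the median was -0.41, -0.23 and -0.23. Fits on 1 row alone called 0 and 4 genes.

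Of the 4 genes of glucose uptake and phosphorylation, 3 were higher in V than in LA and 2 higher than in SA. Slc2a1, the glucose transporter found in most tissues, read 9.53, 9.39, 9.82 and 9.53 in LA, 10.25, 9.64, 9.76 and 9.32 in SA, and 11.34 to 12.38 in V with a median of 11.78. V exceeded LA by 2.28 ± 0.21 (4.85-fold, adjusted p = 5.2e-08) and SA by 2.11 ± 0.21. Hk1, the hexokinase of most tissues, was higher in V by 0.85 ± 0.11 and 0.45 ± 0.11, and Hk2, its insulin-responsive form, was not called in either (-0.12 ± 0.19 and 0.03 ± 0.19). Hk1 read 9.67, 9.47, 9.70 and 9.64 in LA and 10.18 to 10.95 in V (median 10.52), while Hk2 read 9.29, 10.06, 9.81 and 9.88 in LA and 9.12 to 9.93 in V. Slc2a4 was higher in V than in LA by 0.76 ± 0.13 and differed from SA by 0.16 ± 0.13.

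Pfkp, the platelet form of phosphofructokinase, went the opposite way to its muscle form. Its LA arrays read 13.90, 14.21, 14.16 and 14.06, its SA arrays 14.12, 14.13, 13.63 and 13.81, and its V arrays 12.78 to 13.13 with a median of 12.85. V was lower than LA (-1.17 ± 0.11, adjusted p = 9.9e-08) and SA (-1.01 ± 0.11), without overlap, while Pfkm was higher in V by 0.76 ± 0.06 and 0.35 ± 0.06. Pfkm read 14.37, 14.47, 14.59 and 14.57 in LA, 14.87, 14.97, 14.93 and 14.90 in SA and 15.14 to 15.36 in V, again without overlap. Pfkl, the liver form, was not called in either comparison (0.16 ± 0.15 and 0.34 ± 0.15). Pgam1, the phosphoglycerate mutase of most tissues, was also lower in V, by 0.56 against LA (-0.56 ± 0.08) and by 0.72 against SA (-0.72 ± 0.08). It read 14.36, 14.42, 14.24 and 14.37 in LA, 14.61, 14.47, 14.51 and 14.43 in SA and 13.54 to 14.08 in V, so that V lay below both. Eno3 was higher in V than in LA (0.35 ± 0.09) and lower than in SA (-0.27 ± 0.09); the first call was lost with quantile normalization and normexp, and the second without LV replicate 2 or 4, RV replicate 2, or SA replicate 2 or 3. The other 6 glycolytic genes higher in V than in LA were Eno1 (0.91 ± 0.08), Gapdh (0.70 ± 0.10), Aldoa (0.61 ± 0.09), Pgk1 (0.58 ± 0.07), Pkm (0.57 ± 0.07) and Tpi1 (0.51 ± 0.14). Gapdh was not called with normexp. Of these Eno1 alone was called against SA (0.39 ± 0.08). Gpi (0.15 ± 0.08) and Pgam2 (0.09 ± 0.30) were not called in V against LA.

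At the end of the path, Ldhb, the heart form of lactate dehydrogenase, was higher in V than in LA by 1.16 ± 0.07 (adjusted p = 1.2e-10) and than in SA by 0.88 ± 0.07. Ldhb read 17.16, 17.06, 17.14 and 17.18 in LA, 17.53, 17.38, 17.44 and 17.28 in SA and 18.11 to 18.51 in V, with no overlap. Ldha, its skeletal muscle form, was called higher in V than in LA by 0.29 ± 0.06, but its difference turned to -0.0057 with quantile normalization and to -0.15 with another background correction, so it has no settled direction; its LA and SA difference (-0.23 ± 0.07) turned in the same 2 settings, and that of Ldhb (-0.27 ± 0.08) in the second. Of the pyruvate dehydrogenase kinases, which hold pyruvate back from oxidation, Pdk1 lay tightly at 11.24, 11.24, 11.22 and 11.31 in LA, at 11.21, 11.29, 11.41 and 11.20 in SA and at 12.66 to 12.93 (median 12.87) in V. V exceeded them by 1.58 ± 0.07 (adjusted p = 1.1e-12) and 1.55 ± 0.07. Pdk2 was higher in V by 0.82 ± 0.07 and 0.39 ± 0.07.

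Pdk4, the kinase that fasting and fatty acids induce, was not called in any comparison. Its spread was wide in every region, with values of 7.35, 9.01, 7.22 and 8.15 in LA and 7.29 to 9.34 in V. The creatine kinases were both higher in V than in LA, Ckm (muscle form) by 1.02 ± 0.09 and Ckmt2 (mitochondrial form) by 1.58 ± 0.40, and Ckm was higher than in SA by 0.45 ± 0.09.

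**Figure D3:**
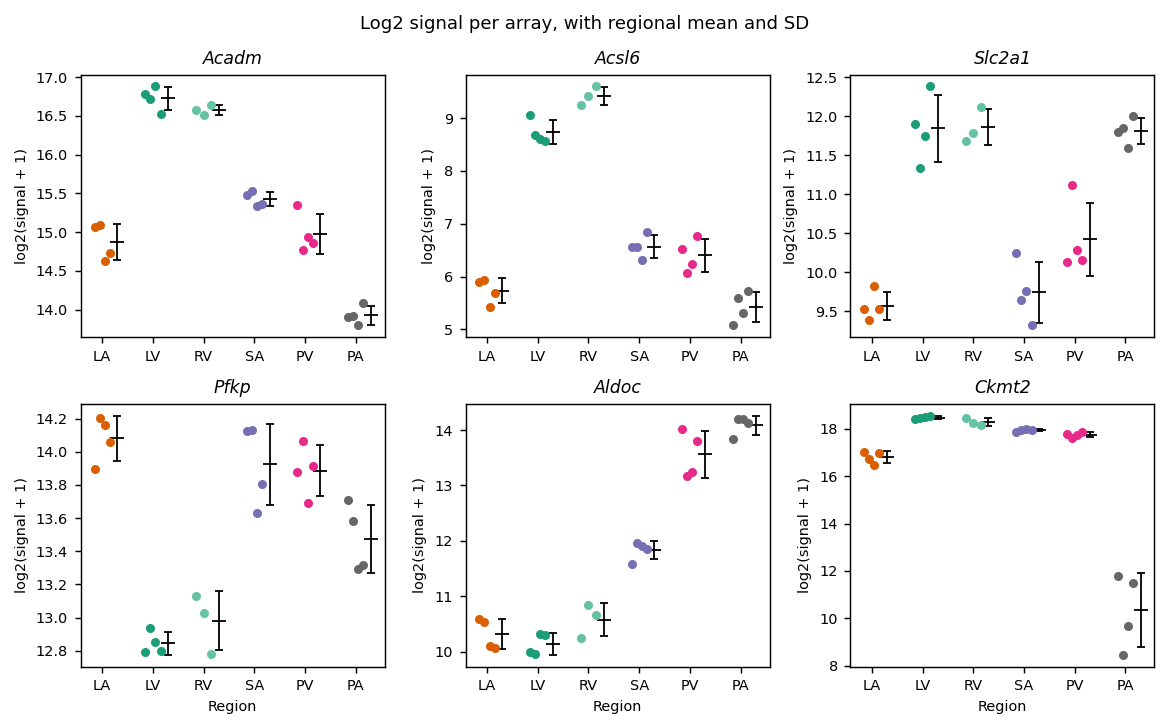
Log2 signal of 6 genes on every array (points), by region, with the regional mean and SD beside them. Acadm, Acsl6 and Slc2a1 are higher in LV and RV than in LA and SA, Pfkp is lower there, Aldoc lies between 9.96 and 10.83 in LA and V, between 11.59 and 11.96 in SA and at 13.17 or above in PV and PA, and Ckmt2 spreads from 8.47 to 11.77 in PA.

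The specificity measure (SPM) of a gene is its mean log2 signal in 1 of LA, V and SA divided by the root of the summed squares of all 3 means, so that even levels give equal values. It put 36 of the 48 genes highest in V, 7 in SA and 5 in LA. This count uses no threshold and includes near ties, such as Acacb at 0.5832 in V and 0.5821 in SA. It was not made over all genes, so it does not show whether the 48 genes differ from the rest. The value in V was 0.72 for Acsl6, 0.66 for Slc2a1 and 0.63 for Pdk1, and at the low end 0.55 for Pfkp and Aldoc. On linear signals the same comparison gave 36, 7 and 5, with 0.98 for Acsl6 in V and 0.89 for Aldoc in SA.

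Paired genes for the same reaction were set against each other on each array, as a description with no test. Only the shift between regions can be read, since the probes of 2 genes need not respond alike. Pfkm relative to Pfkp was 1.93 higher in V than in LA and 1.36 higher than in SA on the log2 scale, with no overlap between arrays. Ldhb relative to Ldha was higher in V by 0.87 and 0.82, and Slc2a4 relative to Slc2a1 was lower by 1.52 and 1.95 (-1.52 and -1.95), again without overlap. Hk2 relative to Hk1 shifted by -0.96 between V and LA without overlap, and by -0.42 between V and SA with overlap. Eno3 relative to Eno1 shifted by -0.66 between V and SA without overlap, and by -0.56 between V and LA with overlap.

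**Figure D4:**
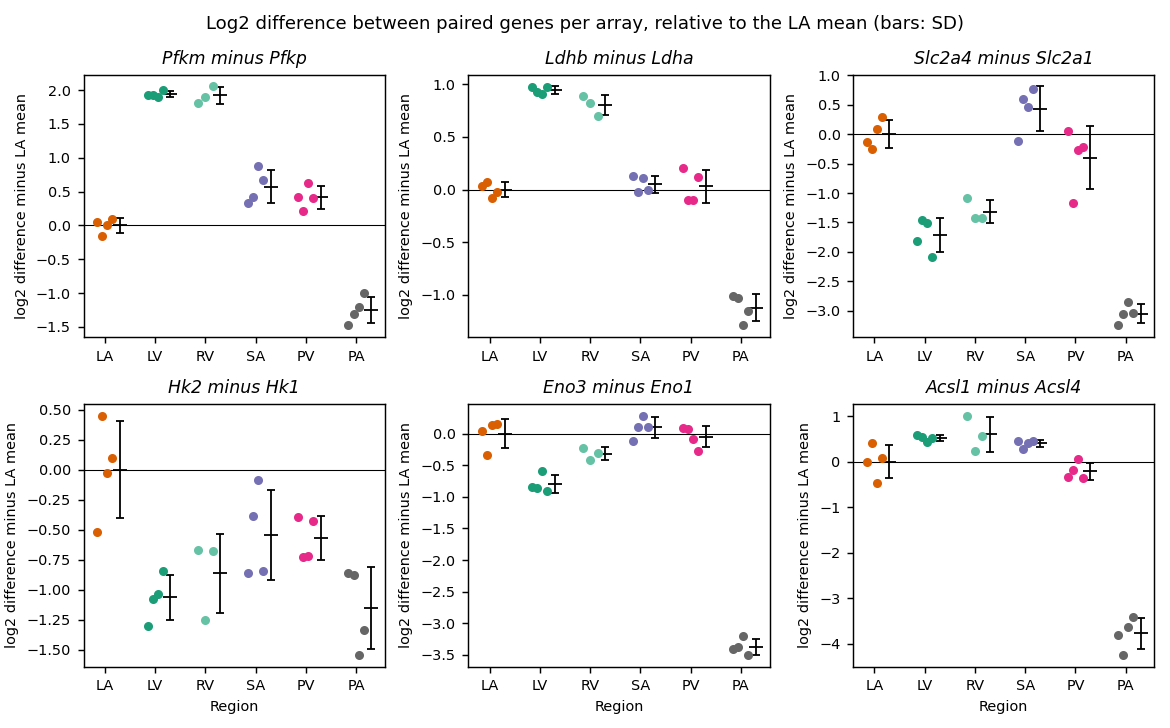
Log2 difference between 2 genes of the same reaction on each array (points), minus its mean in LA, with regional mean and SD. Pfkm minus Pfkp and Ldhb minus Ldha sit above 0 in LV and RV, Slc2a4 minus Slc2a1 and Eno3 minus Eno1 sit below 0 there, and in PA all 6 means lie below 0.

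LV and RV were then compared with each other. None of the 48 genes was called in either direction by limma, where 0.298% of all genes were called higher in LV and 0.224% lower. At an unadjusted p below 0.05 there were 10 of the 48, against 10.7% of all genes at the same threshold. With normexp background correction Acsl6 was called lower, the only 1 of the 48, against 0.75% of all genes in either direction. The median difference was 0.12. The lowest adjusted p were 0.11 for Acsl6, at 9.06, 8.68, 8.61 and 8.57 in LV and 9.25, 9.41 and 9.60 in RV (-0.69 ± 0.19), and 0.15 for Ldhb, at 18.51, 18.33, 18.43 and 18.46 in LV and 18.24, 18.11 and 18.11 in RV (0.28 ± 0.08). Neither gene overlapped between LV and RV.

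Other genes of the same paths, 85 of 88 listed ones that the arrays measure, gave a like count. Between V and LA 46 were higher and 6 lower, with a median of 0.44, and against SA 36 were higher and 8 lower. The 3 with the largest rise over LA were Bdh1 (3.42 ± 0.40), which handles ketone bodies, Ucp3 (3.26 ± 0.63), a mitochondrial carrier induced by fatty acids, and Pfkfb2 (2.12 ± 0.08), the heart form of the enzyme that sets fructose 2,6-bisphosphate. Pfkfb2 read 9.19 to 9.29 in LA and 11.15 to 11.62 in V. Those lower in V included Pdk3 (-1.996 ± 0.16), a pyruvate dehydrogenase kinase, and Phkg1 (-1.001 ± 0.14), a subunit of phosphorylase kinase.

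The pulmonary vein carries a sleeve of atrial-like heart muscle. PV differed from LA in 18 of the 48 genes, 14 higher and 4 lower in PV, with 6.99% and 6.51% of all genes called in these directions. The median was 0.03 against -0.03 over all genes. Of the LA arrays 3 lay in row 1 of their slide and of the PV arrays 3 lay in row 2. With row as a block in the fit, 12 genes were higher and 4 lower in PV. Over all 48 genes, the median difference was 0.04 within row 1 (1 PV array and 3 LA arrays) and -0.04 within row 2 (3 and 1). The 18 called genes kept their direction within each row. The 14 higher genes were 9 glycolytic enzymes, Slc2a1, Slc2a4, Hk1, Acsl6 and Pdk2. The share of the 48 genes called lower was near that of all genes, and fitting only the arrays compared called none (0) of them. They were Slc27a1 (-0.83 ± 0.21), a fatty acid transport protein, Hadhb (-0.69 ± 0.18), Acaa2 (-0.60 ± 0.16) and Hadh (-0.49 ± 0.10). Slc27a1 read 11.43, 11.24, 11.71 and 11.57 in PV against 12.66, 12.77, 11.85 and 11.98 in LA, and Hadhb read 13.15, 12.77, 12.88 and 12.48 in PV against 13.26 to 13.84 in LA, both without overlap. Acaa2 read 13.35, 12.99, 13.22 and 12.92 in PV, where replicate 1 overlapped with LA (13.24 to 14.14).

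Aldoc, the aldolase form best known from brain, stood out among them. It read 14.03, 13.17, 13.24 and 13.80 in PV against 10.58, 10.54, 10.11 and 10.06 in LA, a difference of 3.24 ± 0.19 (9.44-fold, adjusted p = 8.7e-09). PV exceeded SA by 1.73 ± 0.19 (adjusted p = 0.00015), and Aldoc was the only gene called higher in PV than in SA, where 2.71% of all genes were called. Cpt2 (-0.44 ± 0.11) and Acads (-0.44 ± 0.10) were the 2 called lower in PV than in SA, against 0.783% of all genes, and the median of the 48 genes was -0.17. Cpt2 read 13.42, 13.49, 13.23 and 13.26 in PV and 14.02, 13.74, 13.67 and 13.70 in SA, and Acads 15.48, 14.99, 15.26 and 15.20 against 15.67, 15.72, 15.62 and 15.69, both without overlap. Neither was called without PV replicate 4, SA replicate 1 or SA replicate 2, when Aldoc was the only gene called, while without LA replicate 3 the count was 1 higher and 6 lower and without LA replicate 2 it was 1 and 4.

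After Aldoc, Slc2a1 was higher in PV than in LA by 0.86 ± 0.23, with PV at 10.13, 11.12, 10.29 and 10.16 and LA at 9.39 to 9.82, Acsl6 by 0.67 ± 0.17, with PV at 6.53, 6.07, 6.23 and 6.77 above every LA array, and Tpi1, the triose phosphate isomerase, by 0.58 ± 0.15. Some markers of other cells were higher in PV than in LA. The summed signal of 6 smooth muscle genes ran from 77505 to 112352 against 26119 to 31919, that of 5 fibroblast genes from 224785 to 337560 against 98490 to 175188, and Ucp1 was higher by 4.88. The sums for 4 erythroid genes (72605 to 108862 against 25807 to 44778), 4 Schwann cell genes (4830 to 6756 against 1556 to 2313) and 3 genes of autonomic neurons (743 to 5728 against 432 to 631) did not overlap either. Within these lists not all genes moved: of the 5 fibroblast genes only Col1a1 and Col3a1 were called, of the 4 erythroid genes only Hba-a1 and Hbb, and Smtn of smooth muscle and Dbh of neurons were not called. Of the 7 brown fat and fat cell genes, Cidea, Cox8b, Adipoq, Cfd and Lep overlapped between PV and LA, and Elovl3 was below 4 on all these arrays. The sum of the 7 genes overlapped too (227812 to 281326 against 216318 to 276250). The part of all these cells in the PV and LA differences was not tested. The count rested on single arrays: without LA replicate 2 it was 5 higher and 2 lower, without LA replicate 1 it was 8 and 3, without PV replicate 4 it was 9 and 2, and without the other regions in the fit it was 5 and 0. Aldoc and Eno1 were called in each of these.

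The other genes of the paths showed 17 higher and 9 lower in PV than in LA. Bdh1 (1.73 ± 0.46) and Pfkfb1 (1.63 ± 0.31) were among those higher. Pygl, the liver glycogen phosphorylase, was called too, at 3.64 to 6.80 in PV and 3.12 to 4.20 in LA, but was well above background on 2 of 4 PV arrays and 1 of 4 LA arrays, so the size of its difference cannot be read. The largest falls were Fabp5 (-1.43 ± 0.23), Acss1 (-0.83 ± 0.15) and Ucp2 (-0.70 ± 0.20).

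Promoters were searched for 2 short motifs in the 250 bases before each start site of RefSeq (GRCr8), on both strands. Of the 48 genes 43 had an entry, with 47 start sites. ACGTG, the core of the element that hypoxia-inducible factors bind, was in 9 of 25 promoters of glucose and lactate genes (36.0%) and in 1 of 20 of the fatty acid genes (5.0%), against 16.6% of all 33469 promoters. The 9 were those of Aldoa, Aldoc, Gapdh, Hk1, Ldha, Pdk2, Pfkm, Pgam1 and Slc2a1. TNAAGGTCA, a longer half-site bound by estrogen-related receptors, was in none of the 47 and in 1.04% of all. A match describes the letters only.

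The stretches shown are those of Aldoc, at chr10:63715294-63715543, and Slc2a1, at chr5:138002272-138002521, both on the plus strand. They were chosen because both genes were called higher in PV than in LA, and in PA than in the mean of the other regions. Slc2a1 was not higher in these vessels than in V, where its mean was 11.85 against 10.43 in PV and 11.81 in PA. The stretch of Ldha, at chr1:106507842-106508091 (plus strand), is shown for comparison. Capitals mark ACGTG or its reverse complement CACGT, and where these overlap they form CACGTG.
Aldoc: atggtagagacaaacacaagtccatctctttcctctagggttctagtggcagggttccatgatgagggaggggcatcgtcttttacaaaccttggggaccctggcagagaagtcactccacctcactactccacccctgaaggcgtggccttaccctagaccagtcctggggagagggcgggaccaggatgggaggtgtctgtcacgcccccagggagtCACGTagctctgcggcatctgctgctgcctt
Slc2a1: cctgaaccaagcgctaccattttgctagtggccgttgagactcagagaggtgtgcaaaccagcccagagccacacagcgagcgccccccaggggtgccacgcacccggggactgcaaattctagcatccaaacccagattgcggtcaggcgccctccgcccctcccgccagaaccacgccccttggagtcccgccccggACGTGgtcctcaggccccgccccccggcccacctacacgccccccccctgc
Ldha: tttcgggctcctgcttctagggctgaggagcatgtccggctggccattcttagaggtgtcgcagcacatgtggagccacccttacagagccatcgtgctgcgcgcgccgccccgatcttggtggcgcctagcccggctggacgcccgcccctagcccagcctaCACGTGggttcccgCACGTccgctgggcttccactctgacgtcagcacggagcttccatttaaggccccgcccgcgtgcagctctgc
The motif began 31 bases before the start site in Aldoc and 51 bases before it in Slc2a1. Ldha, with 3 motif starts of which 2 lie in CACGTG, differed between PV and LA by -0.0029 ± 0.07 (not called) and was lower in PA (-1.46 ± 0.06), while Aldoc and Slc2a1 were called higher in both comparisons. The Slc2a1 call between PV and LA was lost without PV replicate 2, without LA replicate 2, and without the other regions in the fit.

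**Figure D5:**
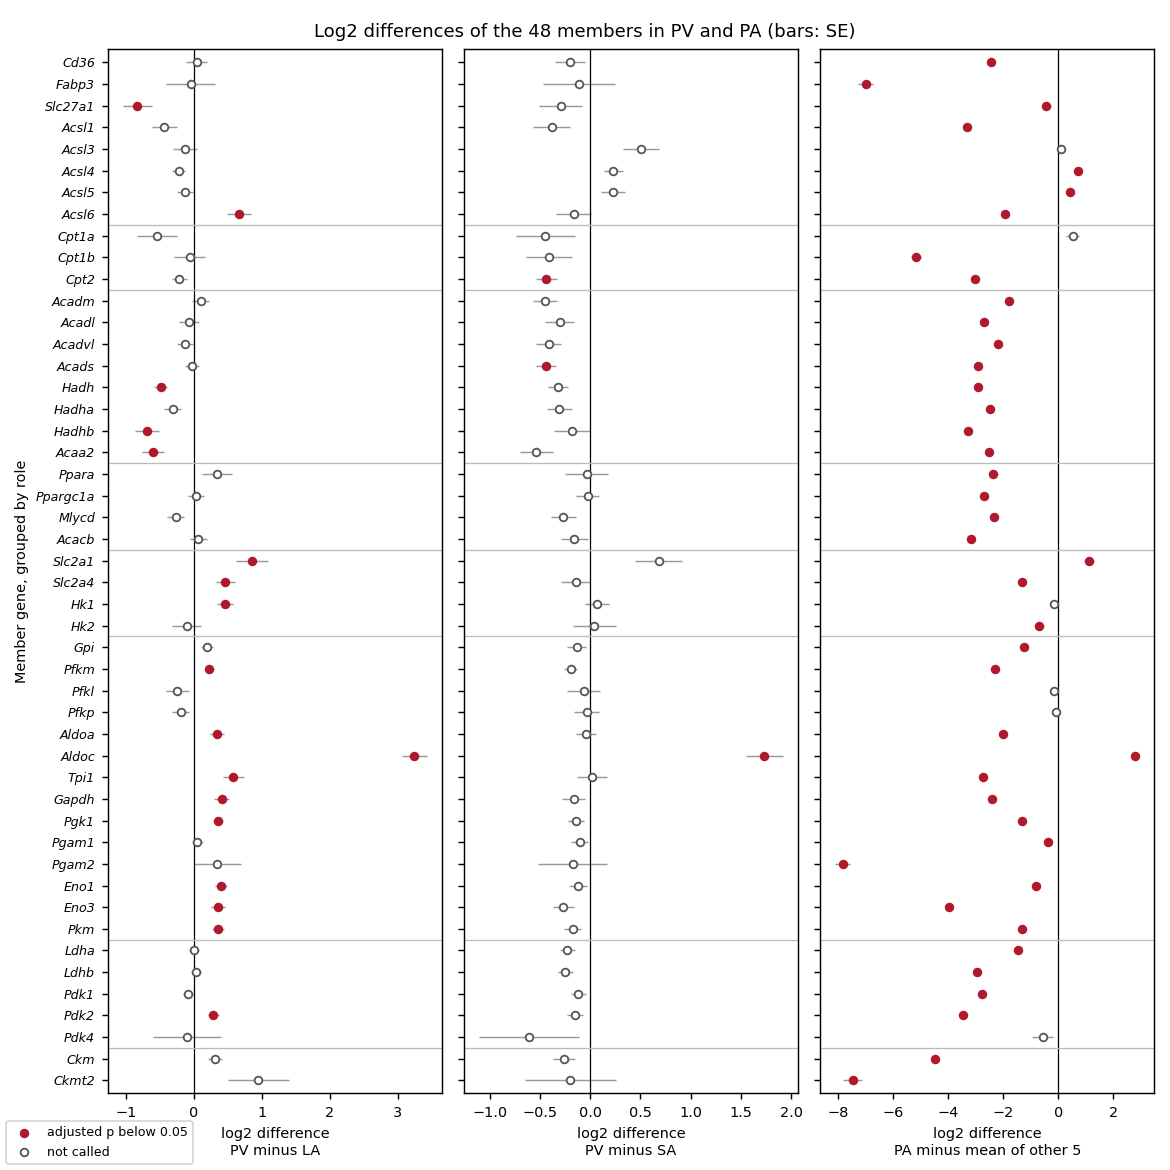
Log2 difference of each of the 48 genes (rows, grouped by role) for PV minus LA, PV minus SA and PA minus the mean of the other 5 regions, with SE bars; filled points have an adjusted p below 0.05. Aldoc lies far to the right in all 3 panels, and in the PA panel Pgam2, Ckmt2 and Fabp3 lie beyond -7.

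The pulmonary artery is smooth muscle with little heart muscle. Against the mean of the other 5 regions, 38 of the 48 genes were lower in PA and 4 were higher, with 27.7% and 31.4% of all genes called in these directions. The median was -2.32 against 0.05 over all genes. All 8 genes of beta-oxidation were lower, with differences from -1.79 ± 0.10 (Acadm) to -3.27 ± 0.14 (Hadhb).

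The largest falls among the 48 genes were those of Pgam2, Ckmt2 and Fabp3. Pgam2, the muscle phosphoglycerate mutase, read 10.28, 7.82, 8.56 and 9.64 in PA and 16.40 to 17.36 in the other regions (median 17.00), a difference of -7.85 ± 0.27. Ckmt2 read 11.77, 8.47, 9.69 and 11.48 in PA against 16.46 to 18.55, a difference of -7.49 ± 0.35. Fabp3 read 10.99, 8.53, 9.49 and 10.78 against 15.79 to 17.95, a difference of -7.01 ± 0.28. Cpt1b (-5.19 ± 0.18), Ckm (-4.49 ± 0.08) and Eno3 (-3.97 ± 0.08) followed. PA replicate 2 was the lowest PA array in Pgam2, Ckmt2, Fabp3 and Cpt1b.

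Markers of heart muscle were lower in PA as well. The summed signal of 5 genes of working myocytes was 27137 to 90153 in PA and 1041911 to 1652532 elsewhere, and Tnni3 was lower by 7.07 (-7.07). The part of myocyte content in each fall cannot be told apart from expression per cell.

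The genes not called were of several roles. Pfkp (-0.07 ± 0.10), Pfkl (-0.14 ± 0.13), Hk1 (-0.14 ± 0.09), Acsl3 (0.11 ± 0.14), Cpt1a (0.52 ± 0.23) and Pdk4 (-0.56 ± 0.39) were these 6 genes. Within pairs, Pgam2 relative to Pgam1 was 7.48 lower in PA (-7.48), Cpt1b relative to Cpt1a 5.70 lower (-5.70), Acsl1 relative to Acsl4 4.04 lower (-4.04) and Eno3 relative to Eno1 3.16 lower (-3.16), all without overlap. Pkm differed by -1.32 on its brightest probe and by -4.11 on another of its 4 probes, so the size of its fall depends on the probe.

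The 4 genes higher in PA were Aldoc (2.80 ± 0.14), Slc2a1 (1.12 ± 0.18), Acsl4 (0.73 ± 0.08) and Acsl5 (0.44 ± 0.09). Aldoc read 13.83, 14.19, 14.19 and 14.13, which overlapped with PV (13.17 to 14.03) and lay above every array of LA, V and SA. Slc2a1 read 11.80, 11.85, 11.59 and 11.998 in PA, within its range in V (11.34 to 12.38) and above LA, SA and PV. Acsl4, a synthetase that prefers arachidonic acid, read 8.72, 8.75, 8.60 and 8.55 and was above all other arrays, of which the highest read 8.33.

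Of the other genes of the paths, 57 of 85 were lower in PA and 14 higher. Slc16a3, the lactate exporter of glycolytic cells, was higher by 4.14 ± 0.12, at 12.48 to 13.12 against 8.13 to 9.10 in the other regions, and Pfkfb1 by 2.26 ± 0.24. Pygl was called higher as well, at 6.06 to 7.15 in PA and 3.09 to 6.80 elsewhere, but outside PA 4 of 19 arrays alone rose well above background, so no size is given. Lpl, the lipoprotein lipase that frees fatty acids from blood lipids, fell by 4.62 (-4.62 ± 0.13), Plin5, a lipid droplet protein of oxidative tissue, by 3.97 (-3.97 ± 0.24) and Bdh1 by 3.94 (-3.94 ± 0.35).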

How the data were processed

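RNA of each tissue piece (200 ng) was labelled with Cy3 and hybridised to 1 Agilent array. Spots were read with Agilent Feature Extraction 11.0.1.1, per the submitters' processing notes. The deposited normalized signal intensity of 45596 probes was used. On each array it is the scanner's processed signal intensity times 1 factor (0.881 to 1.52) that sets the 90th percentile of all arrays alike, as a comparison of the authors' values with the scanner files shows. The table's scale is linear and uncentred. No column of comparisons was used.

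Probe accessions were matched to RefSeq symbols (GRCr8), which named 21047 of 45440 probes with a value on every array, for 16544 genes. Per array, each gene took the value of its brightest probe, 1 was added and log2 taken. Genes above 4 on at least 1 array (16089) were fitted by region with lmFit and eBayes of limma 3.58.1 (R 4.3.3), and the F-test over LA, V and SA tested 15809. Means of LV and RV stand for V. The fit was tested on simulated data. Figures used matplotlib 3.10.9. No 2 arrays held the same values, and arrays of a region correlated at 0.975 to 0.991 (Spearman, across genes). The number of arrays limits the precision.

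The genes, the lists and the rules were chosen with earlier results of these data known. Per-array values are given for the 3 genes called with the largest differences in each direction and for paired forms, and the 3 largest of the other path genes are named for V against LA, PV against LA, and PA, except 1 of those lower in V than in LA, which is not reported here. The alternatives were other scalings, background correction, filters, probe choice, pseudocount, slide, row or replicate number as a block, fewer regions, and each array left out.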

Additional observations from a re-analysis of the deposited data

Results flagged for a closer look

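Within the regions of 4 arrays, 12 of 240 groups held 1 array of a gene that stood apart from the other 3 by Dixon's test at the 95% level, where chance gives about 1 in 20 groups. PV replicate 1 was lowest for Mlycd (13.27) and for Pgk1 (16.51), and highest for Acsl5 (10.55) and Ckm (17.09). PV replicate 2 was highest for Slc2a1 (11.12) and PV replicate 3 for Acsl1 (15.53). PA replicate 3 was lowest for Gapdh (14.92) and Pdk2 (11.68), and PA replicate 2 highest for Slc27a1 (12.02). LV replicate 1 was highest for Hk1 (10.95), LV replicate 4 for Pgam2 (17.04), and LA replicate 2 lowest for Pgk1 (16.16).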

How the results depend on the processing

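The counts of called genes between V and LA, V and SA, and PA and the other regions, and in the F-test over LA, V and SA, stayed within 1.5 times the reported ones under every setting but those on 1 array row. Leaving out 1 array gave 34 to 36, 27 to 31, 41 to 43 and 38 to 40 genes in these, 16 to 23 between LA and SA, 0 between LV and RV, 7 to 20 between PV and LA and 1 to 7 between PV and SA. For PV and LA the lowest count was without LA replicate 2. For PV and SA the count was 7 without LA replicate 3, 5 without LA replicate 2, and 1 without PV replicate 4 or SA replicate 1 or 2. Fitting only the arrays compared gave 5 genes between PV and LA and 1 between PV and SA, in fewer samples. Quantile normalization and normexp each gave 1 between PV and SA, Aldoc, so that all calls there were higher in PV, and normexp gave 1 between LV and RV, the cause not being tested. With quantile normalization 13 genes were lower and 4 higher in LA than in SA. Ldha turned to -0.0057 and -0.15 (V minus LA) and to 0.0525 and 0.11 (LA minus SA) with quantile normalization and normexp, and Ldhb to 0.0142 (LA minus SA) with normexp.

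In the 2 fits on 1 array row each, chosen after seeing the data, fewer samples gave 21 genes between V and LA (row 2), 11 between V and SA (row 1), 0 and 4 between LA and SA, 1 and 1 between PV and LA and 0 and 1 between PV and SA. On slide 1, with 1 LV and 1 LA array, Ppargc1a and Eno3 went against their direction over all arrays. The replicate numbers did not pair the samples (median correlation of deviations -0.04 over 55 pairs; 4 of 23 arrays went best with their own number). With the replicate block 34, 29, 22, 0, 17, 3 and 43 genes were called in the order V and LA, V and SA, LA and SA, LV and RV, PV and LA, PV and SA, PA, and 40 in the F-test. Acsl5 was not called between V and LA without LA replicate 3, nor Acsl4 between V and SA with quantile normalization, with normexp or without SA replicate 2. Leaving aside the fits on 1 row, called in every setting were 30 of 35 genes between V and LA, 25 of 30 between V and SA, 9 of 22 between LA and SA, 2 of 18 between PV and LA and 41 of 42 in PA.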

Other observations

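Pdk4 and Cpt1a, which fasting induces in many tissues, were singled out after their values were seen. Replicate 2 was the highest array for Pdk4 in 4 of 6 regions, at 9.01 in LA, 8.78 in LV, 9.34 in RV and 8.81 in PV, while replicate 4 was highest in SA (8.90) and PA (7.82). For Cpt1a replicate 2 was highest in 3 of 6 regions, at 11.33 in LA, 10.42 in RV and 10.23 in PV, where replicate 4 rounds to the same value. The feeding state of the rats and the rat behind each array are not given in the sources used here.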
